A study of Mus musculus with 2 samples.

Results

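The genes described here are 46 mouse genes of chromosomal DNA replication, from the proteins that load the helicase at origins to the enzymes that supply deoxynucleotides. Members were all probe sets annotated to exactly 1 gene symbol of a fixed list, which gave 98 of the 45037 probe sets and 46 of 18193 genes. The question of the series was how triptolide alters gene expression once T cells are activated. Mouse primary T cells were stimulated with antibodies against CD3 and CD28, 1 sample without triptolide and 1 sample with triptolide at 50 ng/ml, and the total RNA of each was hybridised to 1 Affymetrix array. Both samples share the stimulation and a culture of 18 h. The sources used here do not give the strain and age of the mice, the number of animals or the length of the triptolide exposure. Triptolide, a plant diterpenoid, inhibits transcription through the XPB subunit of TFIIH.

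A cell copies its genome once per division. In G1 the origin recognition complex, CDC6 and CDT1 load the MCM2-7 helicase, and geminin blocks CDT1 afterwards. In S phase CDC45 and GINS activate the helicase, polymerase alpha with primase starts each strand, the clamp loader RFC places PCNA on DNA, and polymerases delta and epsilon extend. Resting T cells hold little of this machinery and make it after stimulation, largely through E2F transcription factors.

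Values are MAS5 signals, on a linear scale. Paired signals give the stimulated array first and the triptolide array second, and every ratio is that of the second over the first. Signals under a background floor of 118, set from chemosensory receptor genes, were raised to it first, and a gene counts as detected where either array lies above that floor. A gene is represented by its brightest probe set unless another is named. With 1 array per condition no test between conditions was possible, and a single ratio has no replicate check. The only guide to precision is how far probe sets of one gene differ. Among 27 members with at least 2 probe sets measured, that is above the floor on each array, the SD of the log2 ratio was 0.26 per probe set, against 0.49 over 3733 genes. It covers probe behaviour and transcript variants, not cultures or animals.

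The labelled cell type could be seen in its markers. All 12 T cell markers examined were above the floor on both arrays, with summed signals of 65728 without and 47704.5 with triptolide. Of 7 B cell markers, 6 and 5 were above the floor (sums 5123 and 3233), with Pax5 under it on both and Ighm brightest (3482 and 1805). Of 8 myeloid markers, 4 and 5 were above it (5130.3 and 7139), with Cd14 under it on both and Ctss brightest (4321 and 5971). Of 5 natural killer cell markers, 3 and 3 were above it (1957 and 898), with Ncr1 under it on both and Gzma, also made by activated T cells, brightest without triptolide (1096 and 280.5). Of 4 neutrophil markers, 2 and 0 were above it (471 and 138), and of 2 erythroid markers none (101 and 108). The part of these cells in the ratios below was not tested.

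As a group the replication genes were detected and mostly lay within 2-fold between the arrays. Of the 46, 45 were detected, and Tyms was not on the probe sets annotated to it alone. At least 2-fold lower signals with triptolide were seen for 5 of the 45 members (11.1%): Pole2, Pold2, Pold1, Dnmt1 and Gmnn. Over all 10968 detected genes that share was 12.5%. No member was at least 2-fold higher, against 5.63% of all detected genes. The median log2 ratio of the members was -0.26, beside -0.16 over all detected genes, and 25 members lay below that common median and 20 above it. The members' count of lower genes was thus near the background. At a threshold of 1.5-fold, 13 members were lower (28.9%, beside 26.9% of all detected genes) and 5 higher (11.1%, beside 13.4%). In bulk RNA, fewer cells in S phase and less RNA per cell cannot be told apart.

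The same held by probe set. Of the 98, 81 were detected and 79 were measured. At least 2-fold lower signals were seen for 8 of the 81 (9.88%), beside 12.8% of all detected probe sets, and at least 2-fold higher signals for 0, beside 5.69%. At 1.5-fold, 21 were lower and 9 higher, 25.9% and 11.1% of the detected members, beside 27.7% and 13.5%. Where a member had at least 2 measured probe sets, they all went the same way in 20 of 27 genes and disagreed in sign in 7. For the 2 brightest measured probe sets, the signs were the same in 74.1% of these members. Over 3733 genes that share was 72.0%, so the members were near the background.

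**Figure D1:**
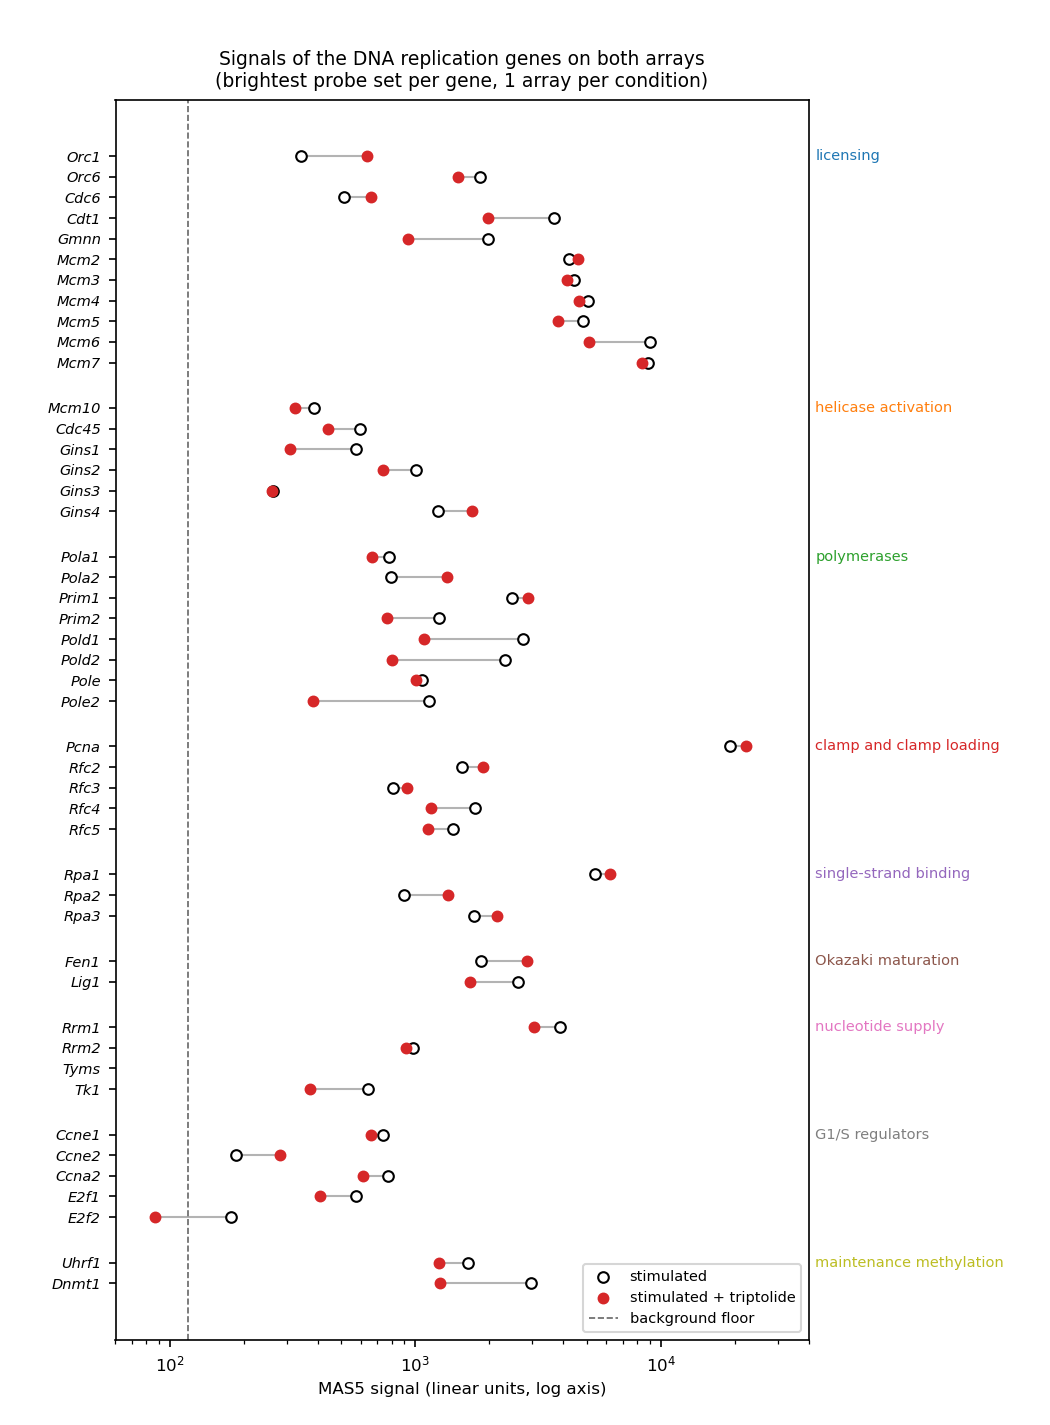
MAS5 signals (log axis) of the 45 detected members on the stimulated array (open circles) and the triptolide array (red), brightest probe set per gene, grouped by role, with the background floor dashed. The widest gaps to the left are those of Pole2, Pold2, Pold1 and Dnmt1, Orc1 and Pola2 have the widest gaps to the right, and Tyms, under the floor on both arrays, is not drawn.

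**Figure D2:**
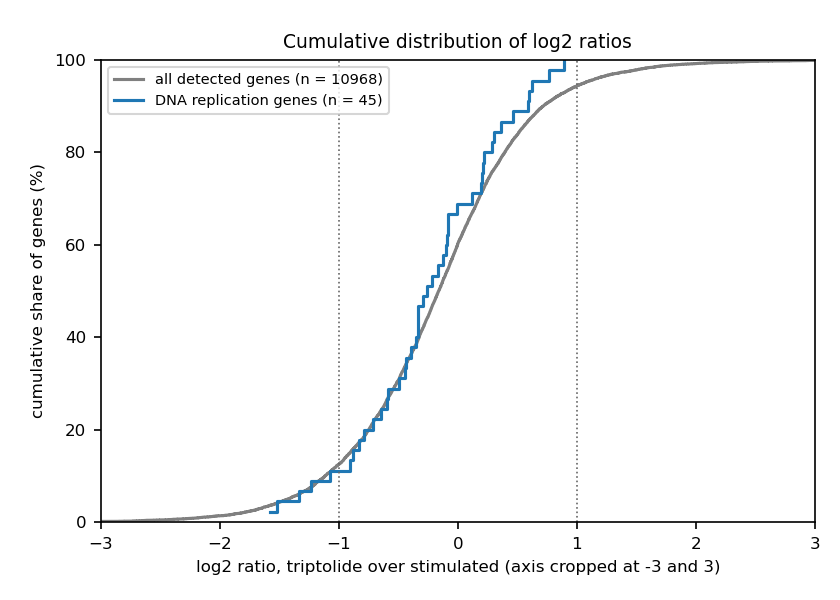
Cumulative share of genes (%) against the log2 ratio, for the 45 detected members (blue) and all 10968 detected genes (grey), with dotted lines at 2-fold. The curves run close together on the lower side, and on the upper side the members end at 0.89 (Orc1).

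Some sequence motifs were more frequent in the promoters of these genes than among all genes. The RefSeq promoter table (build GRCm38.p6, 250 bases before to 50 after each start) held 36 of the 46 members. Not in it were Ccna2, Ccne2, Gins1, Gins2, Gins4, Gmnn, Mcm4, Pole, Prim2 and Rfc2. An E2F site, searched as TTTCCCGC, TTTGGCGC, TTTCGCGC or TTTGCCGC on both strands, was found in 16 of the 36 (44.4%), counting a gene where any of its listed starts had one. Among all 27025 genes of the table it was found in 704 (2.61%), and in 2.26% of the 32851 promoters. The CCAAT box bound by NF-Y (CCAAT, both strands) was found in 63.9% of the members and 41.1% of all genes. The cell cycle element CHR (TTTGAA, both strands) was found in 19.4% and 20.2%. An E2F match overlapped a CCAAT match in 1 member, Mcm7, and a CHR match in none. The promoters were not matched on base composition, and a match is not a bound site.

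The stretch around the site nearest the start is shown for each of the 16 members, to show which letters they share; capitals mark the E2F match, written 5′ to 3′ on the gene's strand. In 7 members it lay before the start, 27 to 185 bases away, and in 9 within the first 50 transcribed bases.
Orc1 (chr4:108579418-108579443, plus strand): cggttagtgGCGCGAAAagttttctc
Cdc6 (chr11:98908004-98908029, plus strand): cggtggagaGCGGGAAAtcgcctggg
Cdt1 (chr8:122568038-122568063, plus strand): aactaccttTTTGGCGCcatggcgca
Mcm3 (chr1:20820277-20820302, minus strand): acttccgtgGCGGGAAAacttgggaa
Mcm5 (chr8:75109351-75109376, plus strand): agaactttcGCGCCAAAacgtccagc
Mcm6 (chr1:128359736-128359761, minus strand): ttggacgggTTTGGCGCgaagtagct
Mcm7 (chr5:138171851-138171876, minus strand): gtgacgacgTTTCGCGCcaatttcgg
Gins3 (chr8:95633509-95633534, plus strand): gagtgcggcGCGGGAAAgcgagtttg
Pola1 (chrX:93632277-93632302, minus strand): catcacaggGCGCCAAAtgcactccc
Pold1 (chr7:44548766-44548785, minus strand): tatcttgtgGCGGGAAAagc
Pole2 (chr12:69228164-69228189, minus strand): tcggcggtgGCGCCAAAtcgcgaaca
Rfc3 (chr5:151651192-151651217, minus strand): ttcgcgctcGCGGGAAAactctactg
Lig1 (chr7:13278843-13278868, plus strand): ccaaagtgcGCGCGAAAtctgtgtgg
E2f2 (chr4:136172304-136172323, plus strand): ggcatatagTTTGGCGCtaa
Uhrf1 (chr17:56304119-56304144, plus strand): cgagtcgggTTTCGCGCgcccaggcg
Dnmt1 (chr9:20952574-20952599, minus strand): ggggcagcgTTTGGCGCgggctgtgc

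The members with an E2F site were on both sides of the comparison. Over the 16 with a site, log2 ratios ran from -1.58 (Pole2) to 0.89 (Orc1) with a median of -0.36. Over the 19 detected members without one in the window they ran from -1.52 (Pold2) to 0.77 (Pola2) with a median of -0.17. At least 2-fold lower were 3 of the 16 and 1 of the 19, beside 12.5% of all detected genes, and the difference between the classes was not tested. Both ranges cover nearly the same span, but their ends are single genes. Of the members with a site, Orc1, Cdc6 and Rfc3 lay above 0 and the others below it. Of the detected members without one, Mcm2, Pola2, Prim1, Pcna, Rpa1, Rpa2, Rpa3 and Fen1 lay above 0 and the others below it.

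The bases before the start are shown for the 2 members with the lowest and the 2 with the highest ratios among those whose measured probe sets went one way. Pole2, Pold2 and Pola2 each met this with 1 measured probe set, so only for Orc1, with 2, could the directions be compared. Capitals mark E2F, CCAAT and CHR matches in these 250 bases, and Pold2 has 2 listed starts.
Pole2 (chr12:69228191-69228440, minus strand): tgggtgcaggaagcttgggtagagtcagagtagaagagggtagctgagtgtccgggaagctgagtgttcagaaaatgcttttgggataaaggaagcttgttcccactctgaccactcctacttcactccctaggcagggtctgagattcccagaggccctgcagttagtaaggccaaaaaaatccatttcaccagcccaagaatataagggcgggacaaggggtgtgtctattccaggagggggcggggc
Pold2 (chr11:5877664-5877913, minus strand): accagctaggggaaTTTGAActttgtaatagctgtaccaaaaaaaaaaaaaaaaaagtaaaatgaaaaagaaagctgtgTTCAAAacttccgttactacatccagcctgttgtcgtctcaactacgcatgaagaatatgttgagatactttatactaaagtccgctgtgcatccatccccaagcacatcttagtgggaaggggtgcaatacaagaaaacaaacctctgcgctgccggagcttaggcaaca
Pold2 (chr11:5878257-5878506, minus strand): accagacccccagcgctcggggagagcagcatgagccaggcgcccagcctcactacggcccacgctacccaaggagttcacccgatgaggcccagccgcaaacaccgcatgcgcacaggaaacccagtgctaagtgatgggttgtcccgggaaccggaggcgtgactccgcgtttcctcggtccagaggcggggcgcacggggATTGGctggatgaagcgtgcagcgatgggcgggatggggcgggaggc
Orc1 (chr4:108579204-108579453, plus strand): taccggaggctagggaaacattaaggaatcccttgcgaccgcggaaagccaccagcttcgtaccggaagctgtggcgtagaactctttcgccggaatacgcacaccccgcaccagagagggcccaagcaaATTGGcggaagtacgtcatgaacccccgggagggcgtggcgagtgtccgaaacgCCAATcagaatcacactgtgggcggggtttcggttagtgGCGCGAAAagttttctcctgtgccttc
Pola2 (chr19:5964207-5964456, minus strand): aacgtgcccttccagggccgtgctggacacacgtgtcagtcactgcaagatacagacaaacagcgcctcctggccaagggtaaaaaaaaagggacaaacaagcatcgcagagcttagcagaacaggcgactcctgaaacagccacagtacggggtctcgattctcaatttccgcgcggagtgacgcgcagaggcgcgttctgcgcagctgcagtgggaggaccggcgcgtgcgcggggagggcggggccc
Orc1 and Pole2, at opposite ends of the ratios, each had an E2F match in the window, before the start in Orc1 and after it in Pole2 (shown with the stretches above). Pola2 had none of the 3 motifs in the window.

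**Figure D3:**
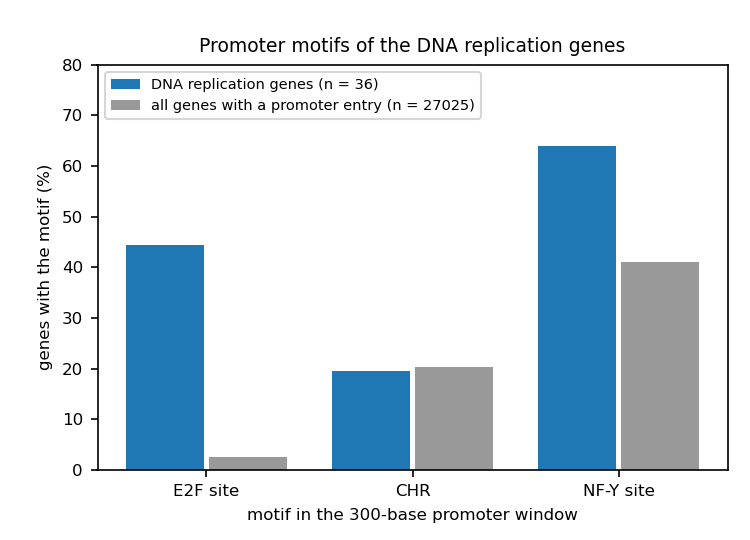
Share of genes (%) with each motif in the 300-base promoter window, for 36 members (blue) and all 27025 genes with an entry (grey). The E2F bars stand at 44.4% and 2.61%, the NF-Y bars at 63.9% and 41.1%, and the CHR bars are nearly level at 19.4% and 20.2%.

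Origin licensing genes lay on both sides. Of the 11 licensing genes, 1 lay beyond 2-fold lower and none beyond 2-fold higher (12.5% and 5.63% of all detected genes), with a median log2 ratio of -0.12. Gmnn, which encodes the CDT1 inhibitor geminin, had signals of 1977 and 937 (2.11-fold lower, on its single probe set). Cdt1, the licensing factor that geminin holds in check, went from 3688 to 1973 (1.87-fold lower) and from 1877 to 1145 on a second probe set. The inhibitor and its target were thus both lower.

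Orc1 and Cdc6 were higher. Orc1, the largest origin recognition subunit and a known E2F target, had signals of 343 and 637 (1.86-fold higher), and 189 and 256 on its second probe set. Its log2 ratio of 0.89 was the highest of all members. Cdc6, the ATPase that works with ORC to load MCM2-7, had signals of 514 and 659.6 (log2 ratio 0.36). Orc6, the smallest ORC subunit, had 1829.9 and 1498 (log2 ratio -0.29). Of the ORC subunits outside the list, named here after their values were seen, Orc5 had a log2 ratio of -0.66 on its 1 measured probe set. The probe sets of Orc2, Orc3 and Orc4 disagreed in sign within each gene, so no direction is given for them.

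The 6 subunits of the MCM2-7 helicase form one ring with 1 copy of each. Mcm2 had signals of 4246 and 4611 (log2 ratio 0.12), Mcm3 4451 and 4152 (-0.10), and Mcm4 5048 and 4638 (-0.12). Mcm5 had 4824.5 and 3826 (-0.33) and Mcm7 8831.5 and 8359 (-0.08). On these brightest probe sets the 5 subunits stayed within 1.26-fold, and their other probe sets went as low as -0.46 (Mcm3) and -0.38 (Mcm7). The second probe sets of Mcm2 (-0.14) and Mcm4 (0.07) differed in sign from the brightest, so these genes have no settled direction. Mcm6 stood lowest, at 9036 and 5078 (1.78-fold lower) and at 3045 and 1773 on its second probe set. Its 2 detected probe sets gave log2 ratios of -0.83 and -0.78, and those of Mcm5, the next subunit, -0.33 and -0.42. The direction of Mcm3, Mcm4 and Mcm7 depended on the scaling: as deposited all 3 lay below 0, Mcm3 and Mcm4 turned above 0 after centring on the array medians, and Mcm7 there and after quantile normalization.

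Helicase activation genes had a median log2 ratio of -0.34, with none of the 6 past 2-fold. Mcm10, a factor needed to start unwinding, had signals of 387 and 324 (log2 ratio -0.26). Cdc45, the helicase cofactor, had 595.5 and 441 (-0.43), but its second probe set went the other way, from 259 to 311. The direction of Cdc45 is therefore unsettled.

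GINS is a complex of 4 proteins with 1 copy of each, and the ratios of its genes differed in sign. Gins1 had signals of 571 and 309 (1.85-fold lower), while Gins4 had 1235 and 1706.5 (1.38-fold higher). Gins2 had 1002.5 and 737 (log2 ratio -0.44). Gins3 had 263 and 261 on its brightest probe set and 281.5 and 165 on the other, so its log2 ratio was -0.01 or -0.77 depending on the probe set. The range over the 4 subunits was 1.35 (log2).

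Polymerase genes held the lowest ratios of all members. Of 8, 3 lay beyond 2-fold lower and none beyond 2-fold higher, where 12.5% and 5.63% of all detected genes did, and the median log2 ratio was -0.46. With 8 genes these counts are a description only. Pold1, the catalytic subunit of the lagging strand polymerase delta, had signals of 2745 and 1089 (2.52-fold lower), and 2174 and 1063.5 on its second probe set. Pold2, its accessory subunit, had 2311 and 807 (2.86-fold lower, on its single probe set). Of all detected genes, 4.12% had a ratio as low as that of Pold2.

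The other delta subunits were named after their values were seen. Pold3 had a log2 ratio of -1.04, with 3 probe sets between -1.04 and -0.47, and Pold4 of -0.29. All 4 delta subunits lay below 0, as did 6603 of all 10968 detected genes.

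Polymerase epsilon, which extends the leading strand, was split. Pole2, its second subunit, went from 1142 to 381.5 (2.99-fold lower, on its 1 measured probe set). This was the lowest ratio of all members, reached or passed by 3.57% of detected genes. Pole, the catalytic subunit, had 1068 and 1010.2 (log2 ratio -0.08, which turned above 0 after median centring and after quantile normalization). Of the histone fold subunits, which are no members, Pole3 was 2.05-fold higher (436 to 893), with both measured probe sets at 1.03 and 1.04. Pole4 had a log2 ratio of 0.03. The 4 epsilon subunits therefore spanned 2.62 (log2), the widest range of the 8 complexes compared.

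Polymerase alpha with primase, which makes the RNA-DNA primers, was split as well. Pola2, the regulatory subunit, had signals of 794.5 and 1351 (1.70-fold higher, on its 1 measured probe set). Prim1, the catalytic primase subunit, had 2477 and 2886 (log2 ratio 0.22) and 1474.5 and 2124 on its second probe set (0.53). Pola1, the polymerase subunit, had 778 and 669 (-0.22). Prim2, the large primase subunit, had 1253 and 766 (1.64-fold lower), and 637 and 489 on its second probe set. One subunit of each pair was higher and the other lower. These 4 directions were the same under all 4 scalings, but Pola1 came to -0.01 after quantile normalization. Its -0.22, on 1 measured probe set, is smaller than the SD of 0.26 per probe set.

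**Figure D4:**
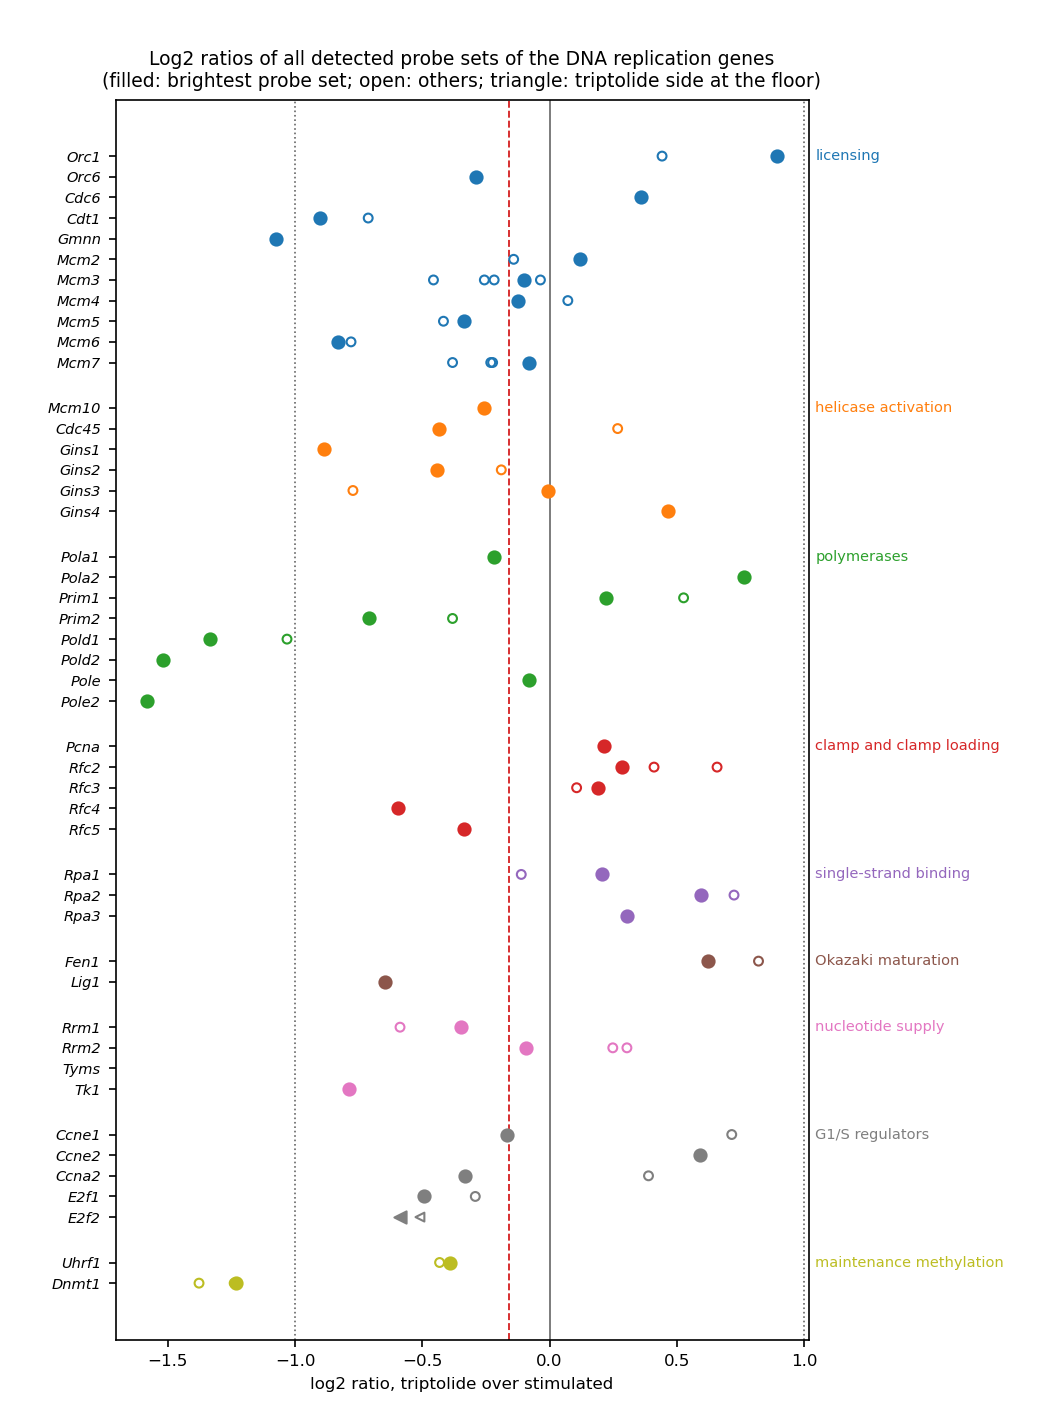
Log2 ratios (triptolide over stimulated) of the 81 detected probe sets of the members, by gene and role; filled symbols are the brightest probe set, open symbols the others, and triangles mark a triptolide signal at the floor. Dotted lines mark 2-fold and the red dashed line the median of all detected genes, -0.16. The 3 probe sets of Dnmt1 and the 2 of Pold1 all lie beyond 2-fold lower, and no symbol lies beyond 2-fold higher.

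Of the clamp and clamp loading genes none of 5 lay past 2-fold, and the median log2 ratio was 0.19. Pcna, the sliding clamp that tethers the polymerases and also a p53 target, had signals of 19135 and 22194 (log2 ratio 0.21). The RFC subunits, which open and close the clamp, separated into pairs. Rfc2 had signals of 1543 and 1881 (0.29) and Rfc3 808 and 922 (0.19), with all 5 of their probe sets above 0. Rfc4 had 1747 and 1156 (1.51-fold lower, and the same on a second probe set) and Rfc5 1428 and 1130.5 (-0.34). The large subunit Rfc1, no member and named after its value was seen, had a log2 ratio of -0.83.

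Replication protein A, which coats single-stranded DNA at forks and breaks, had 3 of 3 subunits above 0, and none past 2-fold. Of all 10968 detected genes, 4363 lay above 0. Rpa2 had signals of 899.5 and 1359 (1.51-fold higher), and 727 and 1201 on its second probe set. Rpa3 had 1739 and 2148 (log2 ratio 0.30). Rpa1 had 5409 and 6236 (0.21), but 2439 and 2258 on a second probe set (-0.11). On their brightest probe sets all 3 stayed above 0 under the 4 scalings, of which only that on housekeeping genes lowered these ratios. The range over the RPA subunits, 0.39 (log2), was the narrowest of the 8 complexes. RPA also has the fewest subunits of the 8, and the second probe sets of Rpa1 and Rpa2 lay outside this range.

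The enzymes that finish Okazaki fragments lay on opposite sides. Fen1, the flap endonuclease that trims the RNA primer, had signals of 1848 and 2843 (1.54-fold higher), and 1544.5 and 2728 on its second probe set. Lig1, the ligase that seals the nick, had 2614 and 1668 (1.57-fold lower, on its single probe set). Both kept their direction under the 4 scalings, whose shifts were smaller than these ratios.

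Nucleotide supply genes had a median log2 ratio of -0.35 over 3 detected members of 4, with none past 2-fold. Tk1, the S phase thymidine kinase that salvages thymidine, had signals of 642 and 371.5 (1.73-fold lower). Rrm1, the large subunit of ribonucleotide reductase, had 3872 and 3041 (-0.35) and 2520.3 and 1677 on a second probe set. Rrm2, its S phase partner, had 976 and 915 on its brightest probe set (log2 ratio -0.09), while the other 2 probe sets gave 0.25 and 0.30. For Rrm2 the probe sets therefore give no direction.

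Tyms, which makes thymidylate, was under the floor on both arrays on its 4 own probe sets. They had signals of 33.3 to 90.7 without and 9.9 to 94.4 with triptolide. A further probe set annotated to Tyms together with its pseudogene was not used, since its signal cannot be assigned, so the level of Tyms is not settled by these values.

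The G1/S regulators had a median log2 ratio of -0.33, with none of 5 past 2-fold. E2f1, an activator of replication genes, had signals of 573 and 407 (1.41-fold lower), and 287 and 234 on its second probe set. E2f2, a related activator, had signals of 178 and 86.8, the latter under the floor, a log2 ratio of -0.59 or less, and its second probe set behaved alike (168.5 and 88.6). Both E2F genes were lower on each detected probe set. Ccne2, a CDK2 partner at S phase entry, had 187 and 281 (log2 ratio 0.59), near the floor. Ccne1 had 741 and 659.6 on its brightest probe set and 262 and 430.1 on the other, and Ccna2, the S phase cyclin, had 772 and 613 and, on the other, 481 and 630.1. In both cyclin genes the probe sets disagreed in sign.

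Maintenance methylation copies DNA methylation behind the fork. Dnmt1, its methyltransferase, had signals of 2953 and 1258 (2.35-fold lower), and the other 2 probe sets went from 2388 to 919 and from 603 to 255. Its log2 ratios of -1.38 to -1.23 made it the only member with 3 probe sets beyond 2-fold. All 3 are of types that can bind several transcripts. Uhrf1, which brings DNMT1 to half-methylated DNA, had 1638 and 1248 (log2 ratio -0.39) and 1010.1 and 749 (-0.43). The gap between the partners was larger than the spread between the probe sets of either.

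The rest of the pathway was followed in 5 lists of 104 genes outside the members, whose counts stand beside 12.5% lower and 5.63% higher of all detected genes. Among 33 other origin and fork factors, 7 passed 2-fold downwards and 2 upwards (median log2 ratio -0.21). Timeless, a fork protection factor, was lowest at 1268 and 288 (4.40-fold lower), with its second measured probe set at -1.16. Orc3 came next, with disagreeing probe sets. Top1, the topoisomerase that relieves supercoils ahead of the fork, went from 2176 to 4997 (log2 ratio 1.20), above Pole3.

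Of 25 detected genes of other nucleotide supply, 3 passed 2-fold downwards and 0 upwards (median -0.22). The dCMP deaminase gene Dctd went from 622 to 200.5 (3.10-fold lower) and Impdh1, an enzyme of guanine nucleotide synthesis, from 1369 to 616 (2.22-fold lower). The mitochondrial salvage kinase genes Tk2 and Dguok were highest, with log2 ratios of 0.55 and 0.57, both within 2-fold.

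In the E2F and RB network 0 of 21 genes passed 2-fold downwards and 2 upwards (median -0.25). Cdkn1a, a CDK inhibitor and p53 target, went from 838 to 4071.5 (4.86-fold higher). Skp2, a ubiquitin ligase subunit, was at or under the floor without triptolide on its brightest probe set and at least 2.23-fold higher with it, but had a log2 ratio of -0.13 on its measured one. Rbl2, which encodes the RB relative p130, was lowest at -0.75, followed by Tfdp2 at -0.71, whose second probe set gave 0.12.

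Of 10 detected genes of replication-coupled chromatin, 3 passed 2-fold downwards and 0 upwards (median -0.10). Anp32b, which encodes a histone-binding protein, went from 16362 to 5908 (2.77-fold lower) and Hells, a remodeller linked to DNA methylation, from 2157 to 821 (2.63-fold lower, and -0.49 on its second probe set). The histone mRNA binding factor Slbp and the histone chaperone Asf1a were highest, at 0.74 and 0.67. Among 11 DNA damage checkpoint genes, 2 passed 2-fold downwards and 1 upwards (median -0.21). The clamp gene Rad1 was 3.08-fold lower and the kinase gene Atr 2.24-fold lower, with 3 Atr probe sets between -1.88 and -0.79. Rad9a, whose protein sits in one ring with RAD1, was 2.42-fold higher, and Atrip, under the floor without triptolide, at least 1.71-fold higher. The medians of these lists, from -0.25 to -0.10, lay near the -0.16 of all detected genes.

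The direction of small ratios rests on how the arrays were scaled. None of the 4 scalings used measures RNA per cell, so a change common to all genes was not tested. Over all detected genes the median ratio (log2) was -0.16 as deposited, -0.05 after centring on the array medians, -0.22 after scaling on housekeeping genes and 0.0051 after quantile normalization. The members' median followed, at -0.26, -0.13, -0.32 and -0.028, and stayed 0.03 to 0.11 below that of all genes. As deposited, 31 members lay below 0 and 14 above it, beside 6603 and 4363 of all 10968 detected genes. On the probe sets used here, 24 members lay below 0 and 14 above 0 under all 4 scalings, while 7 changed sign: Mcm3, Mcm4, Mcm7, Gins3, Pole, Rrm2 and Ccne1. Pole2, Pold2, Pold1 and Dnmt1 were at least 2-fold lower under all 4. Gmnn was not after median centring (-0.95) and quantile normalization (-0.90), under which Orc1 passed 2-fold higher (1.02 and 1.11).

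**Figure D5:**
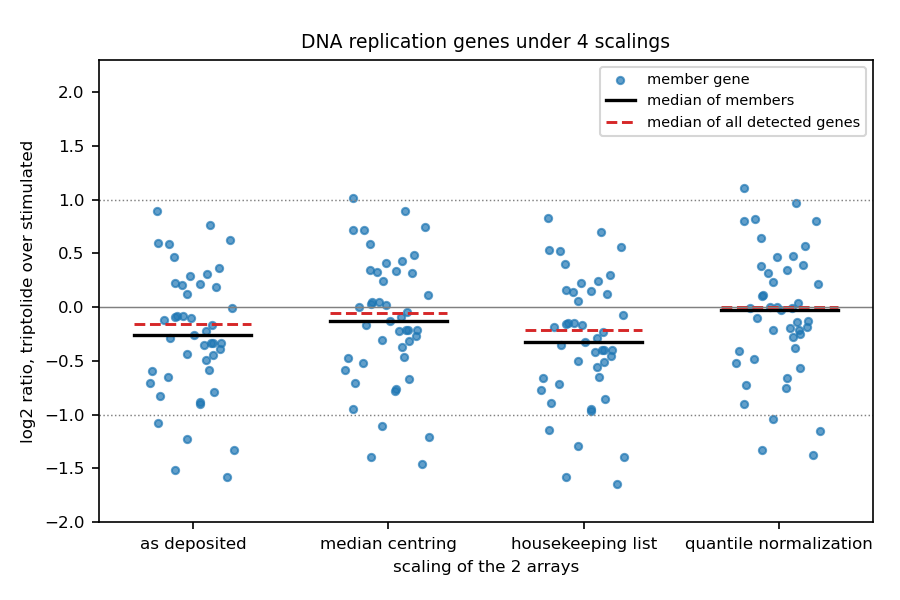
Log2 ratios of the 45 detected members (points, spread sideways for visibility) under 4 scalings of the arrays, with the median of the members (black) and of all detected genes (red dashed). The cloud moves up and down with the scaling, and the members' median stays 0.03 to 0.11 below that of all genes.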

How the data were processed

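The deposited values are MAS5 signal intensities, not log-transformed, 1 for each probe set of an array. MAS5 is named in the submitters' processing notes, while the sources used here give neither its version nor its scaling. Per the labels' protocols, RNA was extracted with Trizol and labelled with biotin. Names came from the platform annotation, and of 45037 probe sets 34945 had 1 gene symbol, 932 several and 9160 none. For 34741 the symbol was updated by Entrez number through the RefSeq gene table (GRCm38.p6).

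The floor of 118 is the 95th percentile of 87 chemosensory receptor probe sets, on the array where it was higher. A gene's brightest probe set had the highest mean log2 of floored signals. With 1 array per group (2 arrays in all) no test was run. Genes were counted past 2-fold on floored signals, beside all detected genes. The calculation (Python 3.11.15, pandas 2.3.3, numpy 2.4.6) was tested on simulated data, with changes larger than any member's in genes well above the floor. That test does not cover smaller ratios or signals near the floor. Alternatives changed the scaling (1 used 13 housekeeping genes), the floor, the probe set, the fold rule and the brightness limit. The members, lists and rules were chosen with earlier results of these data known. All members are described, and of genes outside them the 2 highest and 2 lowest of each list, unless said otherwise. The replicate numbers only name samples.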

Additional observations from a re-analysis of the deposited data

How the results depend on the processing

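Across 10 alternatives the members' count of at least 2-fold lower genes stayed between 4 and 6 except under a 1.5-fold rule, which gave 13 lower and 5 higher genes (26.9% and 13.4% of all detected genes) and 21 lower and 9 higher probe sets. Under the other alternatives the share of all detected genes at least 2-fold lower ran from 8.41% (quantile normalization) to 16.2% (pseudocount in place of the floor). After median centring 1 gene and 1 probe set were at least 2-fold higher, beside 7.11% of all detected genes, and the members' median was -0.13. After quantile normalization 1 gene and 2 probe sets were, beside 8.10% of all detected genes. The medians were then -0.028 for all members, -0.12 for helicase activation and -0.26 for polymerases. Without probe sets that can bind several transcripts, fewer genes remained and the medians were -0.29 for licensing, -0.71 for polymerases, -0.65 for Okazaki maturation and -0.39 for maintenance methylation, the last 2 from 1 gene each. Taking each gene at the median of its detected probe sets, the G1/S regulators had a median of 0.027, the value of Ccna2, and Ccne1 stood at 0.27 (0.72 without shared probe sets). A pseudocount of 16 in place of the floor raised the share of all genes at least 2-fold higher to 8.71%. With a lower floor, E2f2 had a log2 ratio of -1.03. Of 353 member values under alternatives, 3 moved by more than 0.39 (log2), the robust SD per probe set over all genes (Ccne1 under 2 alternatives and E2f2), and no member past 2-fold changed sign. This count is no check of robustness. Median centring and housekeeping scaling shift the members' ratios alike, by less than that SD, and a changed floor leaves brighter genes as they were. The median of licensing changed sign with the scaling, as did that of Okazaki maturation. Signals near the floor limit E2f2, Ccne2 and Tyms. No paired analysis was possible because each group has 1 array.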
